A study of Homo sapiens with 12 samples.

Results

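The 42 genes described here encode nuclear receptors outside the NR4A group, and the rule that lists them uses gene symbols and no measured value. The arrays carry listed probe sets for 36 of the 42, of 19775 genes named in all, and these 36 genes have 120 of the 54675 probe sets on the array. No listed probe set was found for NR1H2, NR1H4, NR1I2, HNF4A, NR2F2 and NR0B1, which were not analysed here. NR1D1 is represented only by 3 probe sets that it shares with THRA, so no value of its own is given.

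All arrays measured RNA of 22Rv1 cells, a human prostate cancer line, grown in serum-containing medium. The groups were cells exposed for 4 h, 6 h or 16 h to a small compound described in the study's title as acting against ONECUT2, a homeodomain transcription factor, and cells given vehicle, with 3 arrays each and 12 in all. The label of the vehicle arrays states no time, and the titles of the 16 h arrays are coded differently from those of the other groups, so compound, time in culture and whatever that code stands for cannot be told apart at 16 h. Whether the 3 arrays of a group came from separate cultures is not stated in the labels, and p-values here reflect array-to-array spread alone, which may be technical.

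Nuclear receptors are transcription factors that bind DNA and, in many cases, a fat-soluble ligand such as a steroid, retinoic acid, thyroid hormone, vitamin D or an oxysterol. Ligand binding exchanges corepressors for coactivators on the receptor and so changes transcription of its target genes. Steroid receptors act mostly as homodimers, many of the others pair with a retinoid X receptor (RXR), and several orphan members have no established ligand. In prostate tissue the family is best known for steroid hormone signalling, and the glucocorticoid receptor has been studied in prostate cancer cells that resist hormone therapy.

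Values are log2 signals as processed by GCRMA, and the probe set of a gene with the highest average on the 12 arrays, its brightest, stands for the gene. Signals of different probe sets depend on probe sequence, so no receptor's level is set against another's. A probe set counted as above control background in a group where all 3 arrays exceeded the highest of 27 unspiked bacterial control probe sets on the same array, a level that ran from 1.87 to 2.28. A gene was tested where the mean of its brightest probe set reached 2.11, the median of all probe sets. "Rose" and "fell" mean an adjusted p below 0.05 in a limma fit over all 12635 genes tested.

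Some array controls moved with the 16 h group. For ACTB, the 3' control probe set exceeded the 5' one by 4.09 ± 0.09 log2 units at 16 h and 2.80 ± 0.07 with vehicle (SD, n = 3 each), and for GAPDH the corresponding values were -0.43 ± 0.04 and -0.46 ± 0.02. The control for 18S ribosomal RNA read 11.06 ± 0.10 at 16 h and 9.62 ± 0.29 with vehicle. At 4 h and 6 h the 18S control was lower than with vehicle, at 8.98 ± 0.14 and 8.64 ± 0.19. The ACTB difference was 2.68 ± 0.09 at 4 h and 3.02 ± 0.34 at 6 h. All 9 listed prostate luminal markers were above the control level on all 12 arrays, with summed linear signals of 5237 to 5522 at 16 h and 5302 to 5471 with vehicle. That sum is made mostly of KRT18 and EPCAM, and other luminal markers had lower 16 h means: SLC45A3 ran from 5.03 to 5.27 at 16 h and from 7.86 to 8.09 with vehicle. The means at 16 h and with vehicle were 5.09 and 6.38 for KLK2, 6.40 and 7.46 for HOXB13, and 2.72 and 3.22 for TMPRSS2. The 6 fibroblast markers summed to 100.6 to 133.4 at 16 h and 50.6 to 60.77 with vehicle. Of these, COL1A1 and LUM averaged 5.82 and 5.35 at 16 h, against 3.77 and 4.10 with vehicle, while DCN and COL3A1 averaged 2.85 and 2.06 at 16 h, against 3.44 and 2.43 with vehicle. COL1A2 was at background on every array, and PDGFRA averaged 1.96 at 16 h and 2.00 with vehicle. None of the 4 leukocyte markers was above the control level on all arrays. Of the 4 endothelial markers PECAM1 was above that level on all 12 arrays, with means of 2.40 at 16 h, 2.95 at 6 h and 2.60 with vehicle. VWF, CDH5 and KDR were above it on none. Of the 4 hepatocyte markers ALB, at 10.90 at 16 h and 11.21 with vehicle, was above it on all 12 arrays and APOA1 on none, and their sum ran from 1824 to 2016 at 16 h and from 2277 to 2440 with vehicle. The part of these differences in the receptor results was not tested.

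Transcripts of 28 of the 35 receptors with a probe set of their own were above control background in at least 1 group, on 56 of their 117 own probe sets. For comparison, 58.3% of all probe sets with 1 gene symbol and 66.4% of all genes by their brightest probe set met the same condition. Of the 28 receptors, 23 had a brightest probe set above the control on all 12 arrays. The 7 receptors with no probe set above control in any group were ESR2 and PGR, which bind estrogen and progesterone, ESRRB, RXRG, the adipogenic receptor PPARG, the xenobiotic receptor NR1I3 and the steroidogenic regulator NR5A1. NR2E3, a photoreceptor regulator, was above control at 4 h only, with 2.04, 2.32 and 2.09 at 4 h against 1.96, 1.84 and 1.85 with vehicle, and it lay below the signal threshold for testing. That left 27 receptors tested.

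Clear signals, at 5 or more on average over the arrays, were recorded for 11 tested receptors. They were NR2F1, NR2C1, NR2C2, ESRRA, NR1D2, NR3C2, HNF4G, NR1H3, NR2F6, VDR and RXRB. Their vehicle means lay between 5.16 and 8.12, which gives the distance from the control level and does not rank the receptors. Close to the control level, ESR1 averaged 2.15 ± 0.09 at 16 h and 2.27 ± 0.07 with vehicle, and RORA and NR6A1 were also near it with vehicle. On vehicle arrays RORA exceeded the control on 1 of 3 arrays, NR0B2 on 2 of 3 and NR6A1 on 0 of 3.

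**Figure D1:**
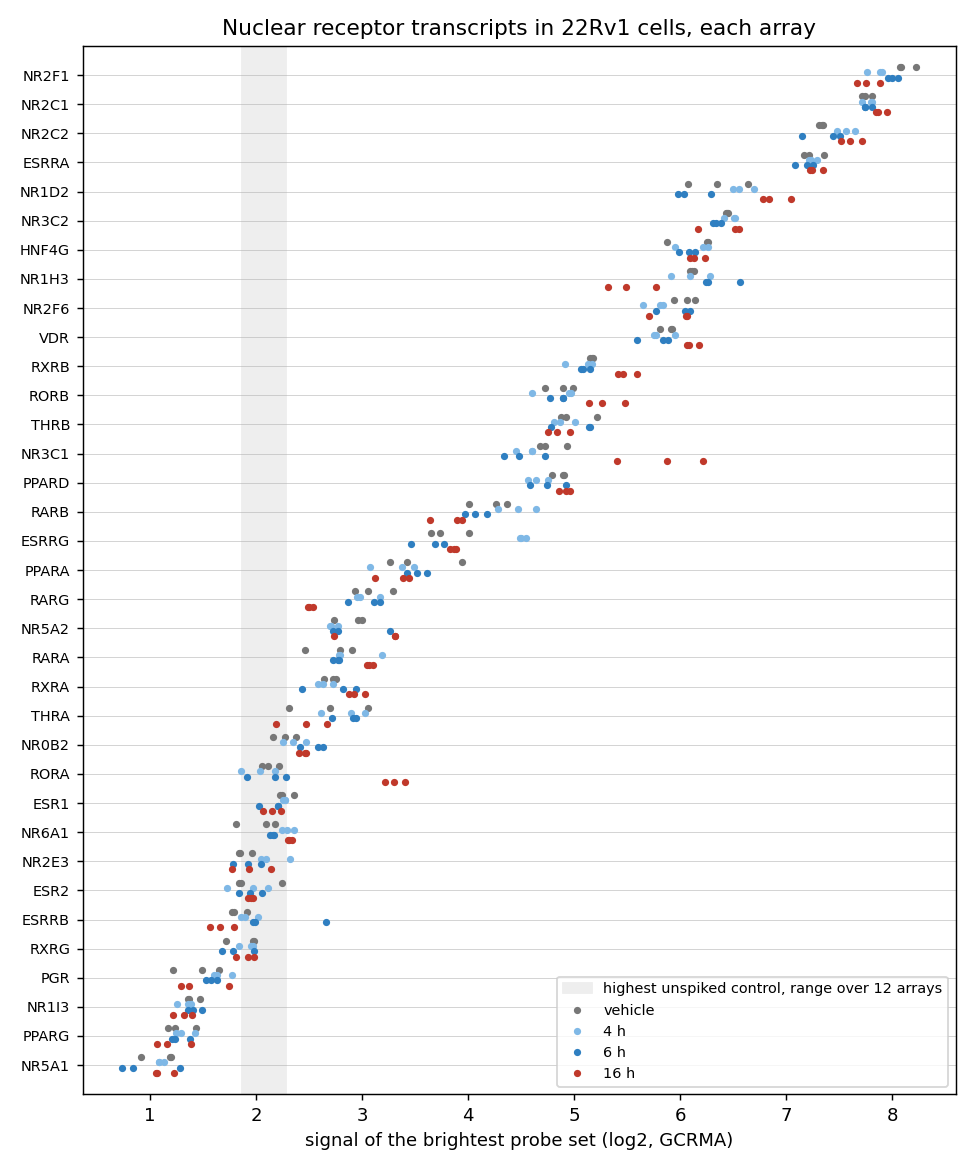
Signal of the brightest probe set of each receptor (x axis, log2 GCRMA signal; 1 row of points per receptor, vehicle in grey, 4 h and 6 h in blues and 16 h in red, 1 point per array), with the range of the highest unspiked control as a grey band from 1.87 to 2.28. The red 16 h points of RORA, NR3C1, RARG, RXRB and NR1H3 are among those that stand apart from the other groups of the same receptor. Positions of different receptors are not comparable.

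At 16 h, 8 of the 27 tested receptors rose and 4 fell, and 15 did not pass. Risen were RORA, NR3C1, NR1D2, RORB, RARA, RXRB, NR6A1 and NR2C2, and fallen were NR1H3, RARG, RARB and NR2F1. That is 44.4% of the receptors, beside 42.8% of all 12635 genes changed in this comparison (26% risen and 16.8% fallen), so the share of receptors that changed was near the background. All 3 of the 16 h arrays lay above all vehicle arrays for 12 receptors and below them for 4, beside 30.5% and 20.9% of all genes. The median log2 change of the receptors was 0.06, against 0.05 over all genes, and the median absolute change was 0.24 against 0.22. In such bulk samples, fewer cells with a transcript and less of it per cell cannot be told apart.

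The calls of the smaller rises depended in part on scaling. With the arrays centred on the median of the tested genes, 4 receptors rose and 4 fell, and over all genes the split was 2422 risen and 3024 fallen, against 3279 risen and 2126 fallen as deposited. Centring moved the median change of all genes to -0.05. The 4 rises lost under centring were RARA, RXRB, NR6A1 and NR2C2 (limma, adjusted p = 0.117, 0.0612, 0.113 and 0.0807), and none of the 12 changed sign. Leaving out 16 h replicate 2 or 3 left 5 or 4 rises, and averaging the probe sets of each gene left 2, among 19 receptors that then passed the signal threshold.

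**Figure D2:**
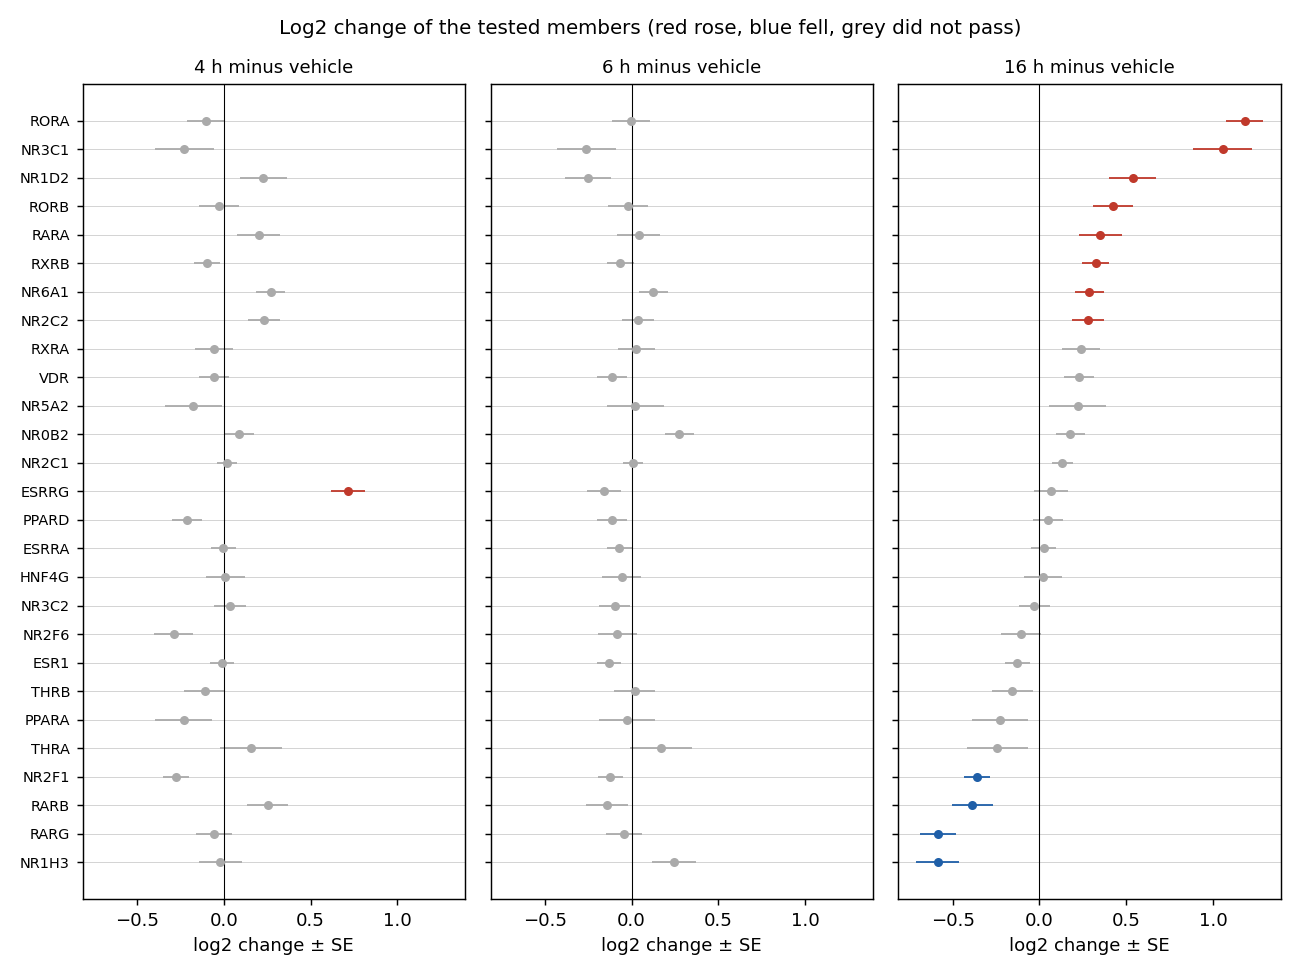
Log2 change against vehicle of the 27 tested receptors at 4 h, 6 h and 16 h (x axis, log2 units; points are the fitted change and bars its SE; red rose, blue fell, grey did not pass). ESRRG alone passed at 4 h, no receptor passed at 6 h, and 8 rises and 4 falls appear at 16 h, led by RORA at 1.18 and NR1H3 at -0.59.

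The REV-ERB and ROR receptors bind the same DNA elements in clock genes, REV-ERBs as repressors and RORs mostly as activators. All 3 of the tested members of this group rose at 16 h, beside 26% of all genes risen, and 3 genes are too few to set against that share. Their rises also held under both scalings, but those of RORA and RORB depended on the choice of probe set, as given below. RORA had signals of 3.30, 3.40 and 3.22 at 16 h, against 2.05, 2.21 and 2.11 with vehicle. Each 16 h array lay more than 1 log2 unit above every vehicle array, and the 4 h and 6 h arrays, between 1.85 and 2.29, overlapped the vehicle arrays. The log2 change was 1.18 ± 0.11 (SE, adjusted p = 5.87e-06). No fold is given, since the vehicle signal exceeded the control on 1 of 3 arrays only. RORA also has the probe set 239550_at, which read 2.70, 2.10 and 2.25 at 16 h and 2.18, 2.36 and 2.32 with vehicle. That second probe set did not pass (log2 change 0.06, adjusted p = 0.816 in the fit over 22708 probe sets). Both are so alike in mean signal that leaving out 16 h replicate 2 or 3 makes 239550_at the brightest, and the call is then lost (log2 change 0.18 and 0.11, adjusted p = 0.475 and 0.71, the range over the alternatives being 1.58e-07 to 0.71). With the probe set kept, the change without any 1 array stayed between 1.13 and 1.23 and the adjusted p at or below 6.16e-05. Another probe set, 210426_x_at, was at background on the vehicle arrays and at least 1.14-fold higher at 16 h.

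NR1D2, which encodes REV-ERB beta, had signals of 6.78, 6.84 and 7.05 at 16 h, against 6.07, 6.35 and 6.64 with vehicle. The groups did not overlap, though the lowest 16 h array lay close to the highest vehicle array. NR1D2 rose by 0.54 ± 0.13 on the log2 scale (SE, adjusted p = 0.00687), or 1.45-fold. Its second probe set rose by a similar amount, 0.53 (adjusted p = 0.0101 over probe sets), with 3.35, 3.33 and 3.29 at 16 h against 2.51, 3.05 and 2.82 with vehicle. In the order vehicle, 4 h, 6 h, 16 h the group means were 6.35, 6.58, 6.10 and 6.89, so the signal did not move steadily with time. The call held in all 34 alternatives run.

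The upstream sequence of NR1D2 is shown because it holds a pair of the E-box CACGTG, the element that the clock activators CLOCK and BMAL1 bind. It lies on the plus strand at chr3:23945871-23946170 (RefSeq, GRCh38.p14), from 250 bases before to 50 bases after an annotated start, with the E-boxes in capitals at positions -155 and -105.
NR1D2: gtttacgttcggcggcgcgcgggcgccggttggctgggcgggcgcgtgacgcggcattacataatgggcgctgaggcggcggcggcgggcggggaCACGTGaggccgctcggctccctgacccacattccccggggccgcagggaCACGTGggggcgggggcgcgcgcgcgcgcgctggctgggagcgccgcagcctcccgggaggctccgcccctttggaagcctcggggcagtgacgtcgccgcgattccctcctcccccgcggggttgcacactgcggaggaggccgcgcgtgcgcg
This palindrome was found in 7.26% of the 35116 promoters listed and in 9 of 91 receptor promoters (9.89%), which belong to 7 receptors. The receptor promoters searched cover 38 of the 42 genes, some of them without array values. A chromosome left out of the receptor promoters was kept among the 35116. The other of the 2 listed NR1D2 promoters held 0 matches, and a promoter of NR2F2 also held 2. Some of the 9 overlap in sequence, those of ESR2 and those of PGR among them. A match describes these letters only.

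RORB, a ROR best known from retina and brain, read 5.14, 5.26 and 5.48 at 16 h, against 4.73, 4.99 and 4.90 with vehicle. Every 16 h array was above every vehicle array, and the 4 h and 6 h arrays, from 4.60 to 4.97, overlapped the vehicle arrays. RORB rose by 0.42 ± 0.12 on the log2 scale (SE, adjusted p = 0.0112). Without 16 h replicate 3 it was 0.33 and just missed the threshold (adjusted p = 0.0504), while over all alternatives the adjusted p ran from 0.00471 to 0.518, the highest with the mean of its probe sets. The shared NR1D1 and THRA probe set 31637_s_at averaged 2.83 at 16 h and 2.68 with vehicle, and both genes could give that signal.

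**Figure D3:**
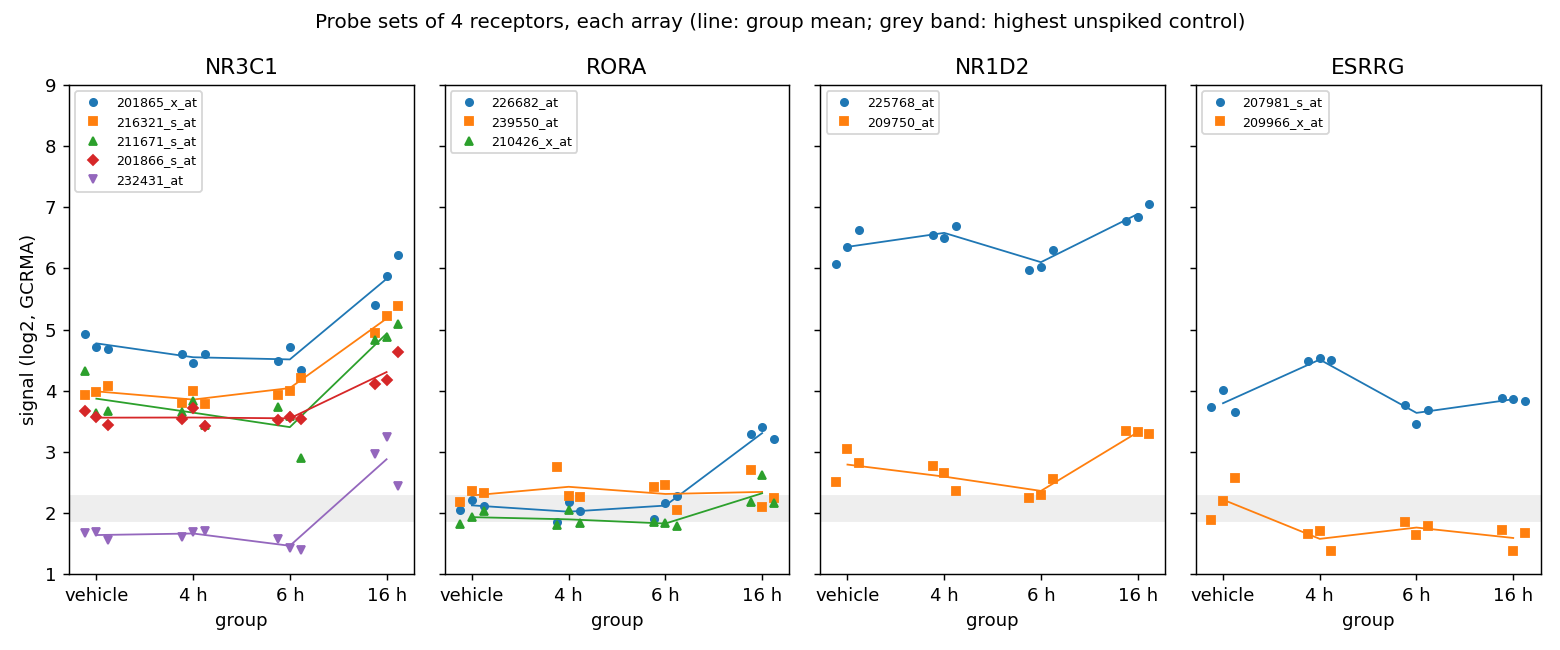
Signals of every probe set above control background for NR3C1, RORA and NR1D2, and of both probe sets of ESRRG (y axis, log2 GCRMA signal; x axis, group; points are arrays, lines join group means, the grey band is the range of the highest unspiked control). The 5 NR3C1 probe sets move up together at 16 h and both NR1D2 probe sets do so too, RORA moves up on 226682_at and 210426_x_at and not on 239550_at, and the ESRRG probe sets move in opposite directions at 4 h.

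Of the 3 tested steroid receptor genes, NR3C1, NR3C2 and ESR1, only NR3C1 changed at 16 h. NR3C1 encodes the glucocorticoid receptor, which binds cortisol and regulates metabolic and anti-inflammatory genes. Its signals were 5.40, 5.87 and 6.22 at 16 h, against 4.93, 4.72 and 4.67 with vehicle. The 16 h arrays were all above the vehicle arrays and also varied most among themselves (SD 0.41 at 16 h and 0.13 with vehicle). NR3C1 rose 2.08-fold (log2 change 1.06 ± 0.17 SE, adjusted p = 0.000423). At 4 h and 6 h the signals ran from 4.34 to 4.72, with no call. All 4 of the NR3C1 probe sets in the probe set fit rose, by 0.75 to 1.19. Another, 232431_at, was above the control only at 16 h, where it read 2.96, 3.24 and 2.44 against 1.67, 1.70 and 1.56 with vehicle, at least 1.67-fold higher. These probe sets share a gene and partly its sequence, so they are not independent measurements. The NR3C1 call held in all 33 alternatives that gave it a value.

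NR3C2, the mineralocorticoid receptor gene, read 6.41 ± 0.21 at 16 h and 6.44 ± 0.01 with vehicle (log2 change -0.03, adjusted p = 0.82). ESR1, the estrogen receptor alpha gene, had a log2 change of -0.13 at signals close to the control level (adjusted p = 0.171). ESR2 and PGR had no probe set above the control in any group, and the brightest of each averaged 1.95 and 1.47 at 16 h against 1.98 and 1.45 with vehicle.

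Retinoic acid receptors (RARs) bind DNA as heterodimers with RXRs and activate retinoid-response genes, RARB among them. The 3 RAR genes did not move one way: RARA rose, RARB and RARG fell, and of the RXR genes RXRB rose. RARG read 2.49, 2.50 and 2.53 at 16 h, against 3.29, 3.05 and 2.93 with vehicle. The 16 h arrays were tightly grouped and all below the vehicle, 4 h and 6 h arrays. The log2 change was -0.58 ± 0.10 (SE, adjusted p = 0.000888), a 1.5-fold fall that held in all 32 alternatives that gave it a value.

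RARB read 3.89, 3.94 and 3.64 at 16 h, against 4.01, 4.26 and 4.36 with vehicle. The groups did not overlap, but the gap between the nearest arrays was small. RARB fell 1.31-fold (log2 change -0.39 ± 0.12 SE, adjusted p = 0.0203). The call was lost without 16 h replicate 3 (log2 change -0.29, adjusted p = 0.0862), vehicle replicate 2 (-0.36, 0.0607) or vehicle replicate 3 (-0.31, 0.0792), with adjusted p from 0.00432 to 0.0862 over the alternatives. At 4 h RARB averaged 4.46 ± 0.18, so the distance between 16 h and 4 h was larger (log2 change -0.64 ± 0.12, adjusted p = 0.00125).

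The RARB promoter below is shown because RARB is itself a textbook retinoic acid target. It was searched for a direct repeat of the letters GTTCA with 6 bases of any kind between its copies. It lies on the plus strand at chr3:25428013-25428312 (RefSeq, GRCh38.p14), and the capitals mark the repeat, which starts at position -52 from an annotated start.
RARB: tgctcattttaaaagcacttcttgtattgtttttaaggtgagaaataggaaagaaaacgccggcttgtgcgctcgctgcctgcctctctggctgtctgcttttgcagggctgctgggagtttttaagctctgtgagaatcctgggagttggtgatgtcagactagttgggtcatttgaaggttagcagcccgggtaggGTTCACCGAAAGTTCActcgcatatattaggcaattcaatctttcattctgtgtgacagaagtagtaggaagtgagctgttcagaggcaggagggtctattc
The pattern GTTCA, N 6 times and GTTCA, on either strand, was found in 20 of 35116 listed promoters (0.057%). Among the 38 receptor genes with promoters searched, RARB was the 1 that held it, in 1 of its 4 listed promoters. The pattern was picked beforehand for the RARB promoter, so neither the match nor its rarity is a finding about RARB.

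RARA read 3.06, 3.11 and 3.04 at 16 h, against 2.91, 2.79 and 2.46 with vehicle. Among the 16 h arrays the values agreed closely, and the vehicle arrays were spread more widely. RARA rose 1.28-fold (log2 change 0.35 ± 0.12 SE, adjusted p = 0.0362), and a second probe set, 216300_x_at, rose by 0.30 (adjusted p = 0.00434 over probe sets). The call on the brightest probe set was lost without 16 h replicate 1, 2 or 3 (log2 change 0.36, 0.33 and 0.36, adjusted p = 0.0684, 0.0938 and 0.0689) and without vehicle replicate 2 or 3 (0.39 and 0.22, adjusted p = 0.0517 and 0.144). Over the alternatives its adjusted p ran from 0.0147 to 0.144.

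RXRB read 5.46, 5.59 and 5.41 at 16 h, against 5.17, 5.15 and 5.17 with vehicle. The vehicle arrays were nearly identical and the 16 h arrays all above them, with a log2 change of 0.32 ± 0.08 (SE, adjusted p = 0.00501). Averaging its probe sets ended the call (log2 change 0.06, adjusted p = 0.514), and the adjusted p started at 0.0023 over the alternatives. RXRA, the partner of many receptors, read 2.88, 3.02 and 2.92 at 16 h, against 2.64, 2.75 and 2.72 with vehicle. Its arrays did not overlap either, and its log2 change of 0.24 did not pass (adjusted p = 0.0992). RXRG had no probe set above the control in any group.

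The oxysterol receptor gene NR1H3, which encodes liver X receptor alpha, had the largest fall among the tested receptors. LXRs sense cholesterol metabolites and induce genes of cholesterol export and fatty acid synthesis. NR1H3 read 5.32, 5.49 and 5.77 at 16 h, against 6.13, 6.11 and 6.10 with vehicle. The 16 h arrays were all lower and more widely spread than the vehicle arrays. The log2 change was -0.59 ± 0.13 (SE, adjusted p = 0.00274), a 1.5-fold fall that held in all 34 alternatives. At 6 h the signals of 6.24, 6.27 and 6.57 were all above the vehicle arrays, and the log2 change of 0.24 did not pass (adjusted p = 0.669). Between 16 h and 6 h the log2 change was -0.83 ± 0.13 (SE, adjusted p = 0.000282). Of the other receptors of this class, NR1I3 was not above the control in any group.

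Orphan receptors changed in both directions. NR2F1, which encodes COUP-TF1, a regulator of neural development, read 7.75, 7.88 and 7.67 at 16 h, against 8.07, 8.08 and 8.22 with vehicle. Every 16 h array was below every vehicle array (log2 change -0.36 ± 0.07 SE, adjusted p = 0.00219), and the call held in all 34 alternatives. At 4 h NR2F1 read 7.76, 7.90 and 7.89, also below every vehicle array, with a log2 change of -0.27 that did not pass (adjusted p = 0.179).

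NR2C2, which encodes the testicular receptor TR4, read 7.51, 7.71 and 7.60 at 16 h, against 7.35, 7.33 and 7.31 with vehicle. NR2C2 rose 1.21-fold (log2 change 0.28 ± 0.09 SE, adjusted p = 0.0282). The groups did not overlap, but the call was lost without 16 h replicate 2 or 3 (log2 change 0.23 and 0.28, adjusted p = 0.105 and 0.06) and without vehicle replicate 1, 2 or 3 (0.29, 0.28 and 0.27, adjusted p = 0.0567, 0.0611 and 0.0695). Over the alternatives its adjusted p ran from 0.00778 to 0.293, and its second probe set had a log2 change of -0.08 that did not pass. At 4 h NR2C2 read 7.56, 7.48 and 7.65, also above every vehicle array. The 4 h log2 change of 0.23 did not pass (adjusted p = 0.385), and that between 16 h and 4 h was 0.05 (adjusted p = 0.709). NR2C1, the gene of the related receptor TR2, read 7.89 ± 0.06 at 16 h and 7.76 ± 0.04 with vehicle (log2 change 0.13, adjusted p = 0.09).

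NR6A1, the germ cell nuclear factor gene, read 2.31, 2.33 and 2.30 at 16 h, against 1.81, 2.18 and 2.09 with vehicle. It was above the control on 3 of 3 arrays at 16 h and on 0 of 3 with vehicle, so the rise (adjusted p = 0.0161, and 0.00612 to 0.113 over the alternatives) is given as at least 1.13-fold. At 4 h NR6A1 read 2.36, 2.24 and 2.29, also above the control and above every vehicle array. The 4 h log2 change of 0.27 did not pass (adjusted p = 0.265), and that between 16 h and 4 h was 0.02 (adjusted p = 0.885). NR2F6, an orphan repressor, and NR5A2, the liver receptor homolog 1 gene, had log2 changes of -0.11 and 0.22 (adjusted p = 0.481 and 0.313). NR0B2, a corepressor without a DNA-binding domain, read 2.44 ± 0.04 at 16 h and 2.27 ± 0.11 with vehicle (log2 change 0.18, adjusted p = 0.109).

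**Figure D4:**
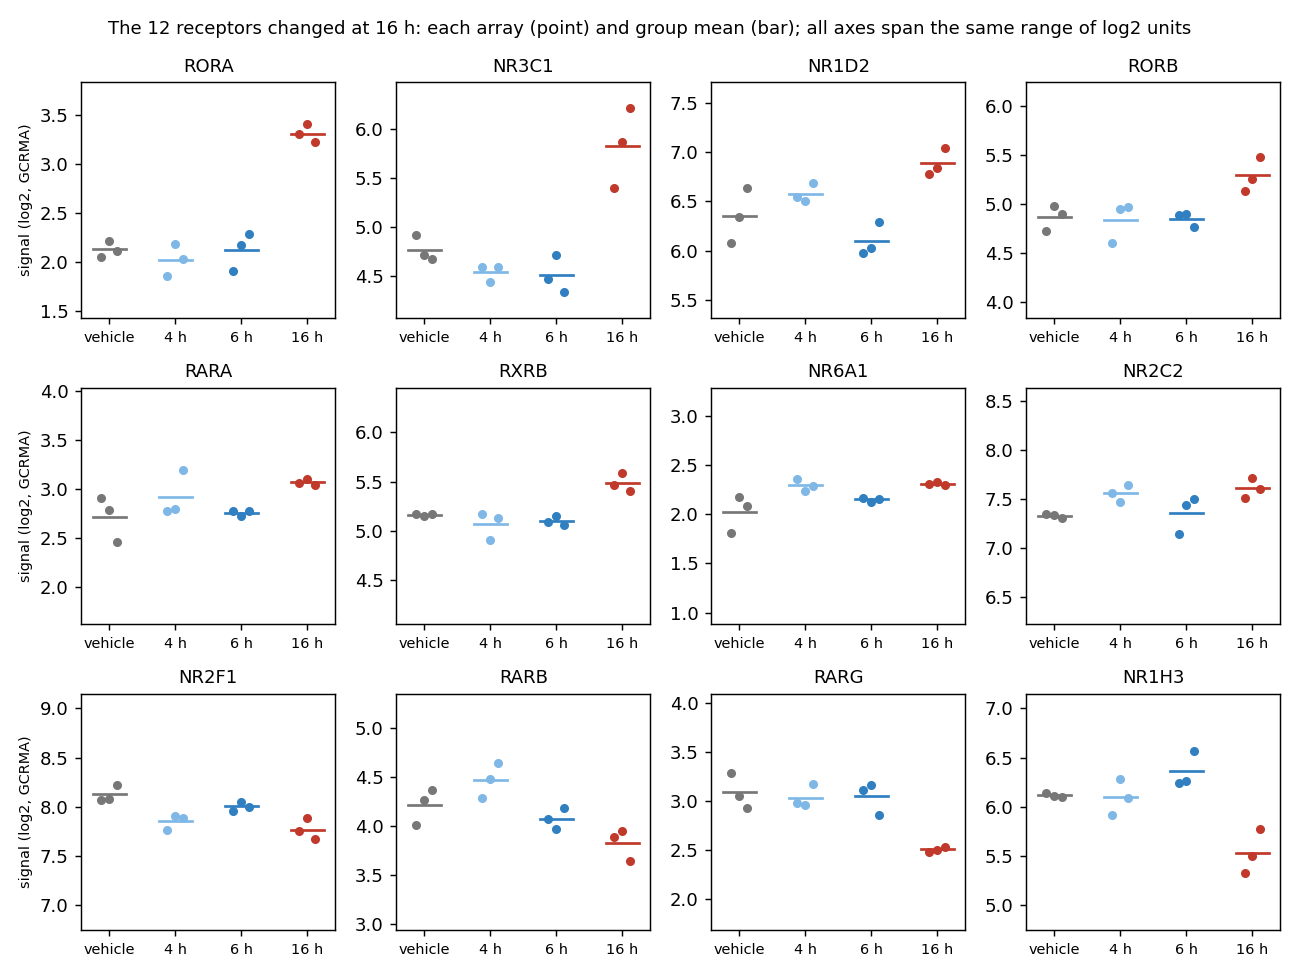
Signals of the 12 receptors that changed at 16 h (y axis, log2 GCRMA signal, each panel spanning the same number of log2 units; x axis, group; points are the 3 arrays and bars the group mean). In every panel the 16 h arrays lie on one side of all vehicle arrays, with the widest gap for RORA and narrow gaps for RARB, NR6A1, RARA and NR1D2.

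None of the thyroid hormone and vitamin D receptor genes passed at 16 h. VDR, the vitamin D receptor gene, came nearest: it read 6.08, 6.07 and 6.18 at 16 h, against 5.91, 5.81 and 5.92 with vehicle. These arrays did not overlap (log2 change 0.23 ± 0.09 SE, adjusted p = 0.0519). VDR did pass in some alternatives, among them a signal filter at the 75th percentile (adjusted p = 0.0326) and the replicate number as a block (0.0291). It also passed with only the 16 h and vehicle arrays in the fit (0.0485). THRA and THRB, the thyroid hormone receptor genes, had log2 changes of -0.24 and -0.16 (adjusted p = 0.3 and 0.316), and the THRA vehicle arrays spanned 2.31 to 3.05.

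The tested PPARs, receptors for fatty acids that regulate lipid oxidation, had no call on their brightest probe sets at 16 h. PPARA read 3.32 ± 0.17 at 16 h and 3.54 ± 0.35 with vehicle, and PPARD read 4.91 ± 0.05 at 16 h and 4.86 ± 0.06 with vehicle. Dimmer probe sets of both passed in the fit over probe sets. The PPARA probe set 223437_at fell by 0.31 (adjusted p = 0.0242), with 2.80, 2.75 and 2.87 at 16 h against 3.04, 3.22 and 3.10 with vehicle. The PPARD probe set 242218_at rose by 0.43 (adjusted p = 0.0414), with 2.63, 2.88 and 2.70 at 16 h against 2.28, 2.20 and 2.44 with vehicle. In that fit 14 of 46 receptor probe sets rose and 5 fell at 16 h, which is 41.3% changed, beside 41.2% of all 22708 probe sets fitted (23.3% risen and 18% fallen).

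HNF4G, a regulator of intestinal and hepatic genes, was steady, with 6.15 ± 0.08 at 16 h and 6.13 ± 0.22 with vehicle (log2 change 0.02 ± 0.11 SE). ESRRA, an orphan regulator of mitochondrial genes, was equally close, at 7.27 ± 0.06 and 7.25 ± 0.10 (log2 change 0.02 ± 0.07 SE).

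At 4 h, 1 of the 27 tested receptors changed, ESRRG, beside 0.459% of all genes. ESRRG encodes estrogen-related receptor gamma, an orphan that drives oxidative metabolism in heart and other energy-demanding tissue. Its brightest probe set read 4.49, 4.54 and 4.50 at 4 h, against 3.73, 4.01 and 3.65 with vehicle. The 4 h arrays were nearly identical and clearly above the vehicle arrays. The log2 change was 0.71 ± 0.10 (SE, adjusted p = 0.0062), a 1.64-fold rise. By 6 h the signals were 3.77, 3.46 and 3.69 and by 16 h 3.88, 3.87 and 3.83, both within or close to the vehicle range. Between 6 h and 4 h ESRRG was the 1 receptor that changed (log2 change -0.87 ± 0.10 SE, adjusted p = 0.00581), beside 0.095% of all genes. That call was lost without 4 h replicate 2 (log2 change -0.86, adjusted p = 0.056), with adjusted p from 0.00123 to 0.288 over the alternatives.

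The other ESRRG probe set, near the control level, did not follow. 209966_x_at read 1.66, 1.70 and 1.37 at 4 h, against 1.89, 2.19 and 2.58 with vehicle, and its mean was too low for the fit. With the mean of both ESRRG probe sets in place of the brightest, the 4 h change was 0.04 (adjusted p = 0.92), and no other alternative lost the call. Among the 33 alternatives that gave it a value the adjusted p ran from 0.00298 to 0.92.

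At 6 h none of the 27 tested receptors passed the limma test, beside 0.0317% of all genes that passed. The lowest adjusted p was that of NR0B2 (0.353), which read 2.63, 2.58 and 2.41 at 6 h against 2.38, 2.27 and 2.15 with vehicle. Each alternative run also gave 0 rises and 0 falls at 6 h. Against 4 h, 7 receptors rose and 4 fell at 16 h (40.7% of the 27), beside 24.8% of all genes risen, 16.1% fallen and 40.9% changed. Against 6 h, 7 rose and 3 fell at 16 h (37%), beside 25.1% risen, 17.6% fallen and 42.7% changed.

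Coactivators and corepressors carry the transcriptional output of these receptors. Of 15 tested coactivator genes 7 rose and 3 fell at 16 h (median log2 change 0.24, against 0.05 over all genes), beside 26% of all genes risen, 16.8% fallen and 42.8% changed. NCOA7, a nuclear receptor coactivator gene, read 8.91 ± 0.09 at 16 h and 8.16 ± 0.07 with vehicle (log2 change 0.74, adjusted p = 3.24e-05). MED14, a Mediator subunit gene, and CREBBP, a histone acetyltransferase gene, rose by 0.60 and 0.53 (adjusted p = 0.00347 and 0.00435). Averaging the probe sets of a gene ended these 3 calls (adjusted p = 0.494 for NCOA7, 0.128 for MED14 and 0.507 for CREBBP). The MED14 call also ended when probe sets of the _s_at and _x_at classes were avoided (adjusted p = 0.969). These were the highest p for each gene over the alternatives, taking the second value for MED14. Of 10 tested corepressor genes 4 rose and 0 fell (median 0.14), near the 42.8% of all genes changed. NRIP1, which encodes a ligand-dependent corepressor, read 7.83 ± 0.11 at 16 h and 7.35 ± 0.03 with vehicle (log2 change 0.48, adjusted p = 0.000148). SAFB2 and SAFB, related chromatin-binding repressor genes, rose by 0.42 and 0.31 (adjusted p = 0.00212 and 0.00738), and averaging probe sets ended the SAFB2 call (adjusted p = 0.313, the highest over its alternatives). No coregulator changed at 4 h or 6 h.

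Textbook target genes of the receptors did not move as 1 block at 16 h, when 26% of all genes rose and 16.8% fell. Of 11 tested glucocorticoid receptor targets 4 rose and 6 fell (median log2 change -0.20). ERRFI1, which encodes a feedback inhibitor of EGFR, read 10.59 ± 0.16 at 16 h and 8.76 ± 0.03 with vehicle (log2 change 1.83, adjusted p = 6.1e-08), and it had already risen at 4 h, with 9.43 ± 0.05 (0.67, adjusted p = 0.0062). SGK1, a kinase gene that promotes sodium uptake, rose by 1.56 (adjusted p = 3.51e-05). MT2A, a metallothionein gene, was lower, with 9.08 ± 0.14 at 16 h and 10.58 ± 0.06 with vehicle (log2 change -1.50, adjusted p = 8.32e-08). These genes respond to other signals as well, growth factors, osmotic stress and metals among them.

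Of 10 tested liver X receptor targets 1 rose and 6 fell at 16 h (median log2 change -0.35). The fatty acid synthase gene FASN read 7.71 ± 0.11 at 16 h and 9.44 ± 0.06 with vehicle (log2 change -1.73, adjusted p = 9.31e-09). SREBF1, a transcription factor gene of lipid synthesis, and the desaturase gene SCD fell by 1.51 and 0.56 on the log2 scale (adjusted p = 5.4e-05 and 2.93e-05). All 3 are also regulated by other lipid and nutrient signals. At 4 h and 6 h none of the 10 passed.

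Of 6 tested REV-ERB and ROR targets 4 rose and 2 fell at 16 h (median 0.36). NFIL3, a repressor gene of the clock network, read 7.46 ± 0.18 at 16 h and 5.08 ± 0.13 with vehicle (log2 change 2.38, adjusted p = 2.87e-06). BMAL1, the clock activator gene, rose by 0.58 (adjusted p = 0.00202). E2F8, a cell cycle repressor gene, fell by 0.85 on the log2 scale (adjusted p = 4.04e-06).

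Of 4 tested genes of retinoid response and metabolism 3 rose and 0 fell, while the other 11 of the list of 15 were below the signal threshold or without a listed probe set. DHRS3, a retinaldehyde reductase gene, read 4.69 ± 0.10 at 16 h and 4.05 ± 0.09 with vehicle (log2 change 0.64, adjusted p = 0.000167). RDH10 and ALDH1A1, genes of retinoic acid synthesis, rose by 0.40 and 0.39 (adjusted p = 0.0142 and 0.0288). Under median centring DHRS3 alone of the 3 passed. RDH10 was also lost without vehicle replicate 2, and ALDH1A1 without vehicle replicate 1 or 3 or 16 h replicate 2 or 3 (adjusted p up to 0.06 and 0.118 over the alternatives).

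Of 11 tested PPAR targets 2 rose and 3 fell at 16 h (median -0.12), near the 42.8% of all genes changed, and under median centring 2 rose and 5 fell. PDK4, a kinase gene that restrains glucose oxidation, read 10.45 ± 0.14 at 16 h and 9.70 ± 0.08 with vehicle (log2 change 0.76, adjusted p = 9.96e-06). The carnitine carrier gene SLC25A20 rose by 0.44 (adjusted p = 0.00208). ANGPTL4, a lipase inhibitor gene, fell by 0.41 at 16 h (SE 0.11, adjusted p = 0.00983) and fell by 0.70 at 4 h (adjusted p = 0.0189) on the log2 scale, with 3.65 ± 0.11 at 4 h and 4.34 ± 0.15 with vehicle. The 4 h call of ANGPTL4 was lost without any 1 of the 4 h arrays or vehicle replicate 1 or 3 (adjusted p up to 0.0814). PDK4 is also on the list of estrogen-related receptor targets, of which 1 of 6 tested rose and 2 fell (median -0.03). The others that changed were the mitochondrial genes CS and ATP5F1B, which fell by 0.33 and 0.25 on the log2 scale (adjusted p = 0.000895 and 0.0061).

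Of 8 tested estrogen receptor targets 2 rose and 0 fell, XBP1 by 0.52 and CA12 by 0.44 (adjusted p = 0.000155 and 0.000907). Under quantile normalisation or median centring 3 others of them fell, and the list's median of -0.14 opposes its 2 calls. Of 6 tested targets of xenobiotic and bile acid receptors 3 rose and 2 fell (median 0.36). The transporter gene ABCC2 and the heme synthesis gene ALAS1 rose by 0.98 and 0.84 (adjusted p = 2.19e-05 and 0.000101), and the drug-metabolising gene CYP2C8 fell by 0.62 on the log2 scale (adjusted p = 0.00347). For the vitamin D receptor 2 of 10 listed targets were tested. IGFBP3, which encodes an IGF-binding protein, read 9.33 ± 0.08 at 16 h and 8.77 ± 0.03 with vehicle (log2 change 0.56, adjusted p = 0.000525), and it was lower at 4 h, with 8.19 ± 0.22 (log2 change -0.58, adjusted p = 0.0192). The 4 h call of IGFBP3 was lost without 4 h replicate 1 (adjusted p = 0.0592) and without vehicle replicate 1, 2 or 3 (0.0814, 0.0643 and 0.0749). It was also lost with only the 4 h and vehicle arrays in the fit (0.147, the highest over the alternatives).

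**Figure D5:**
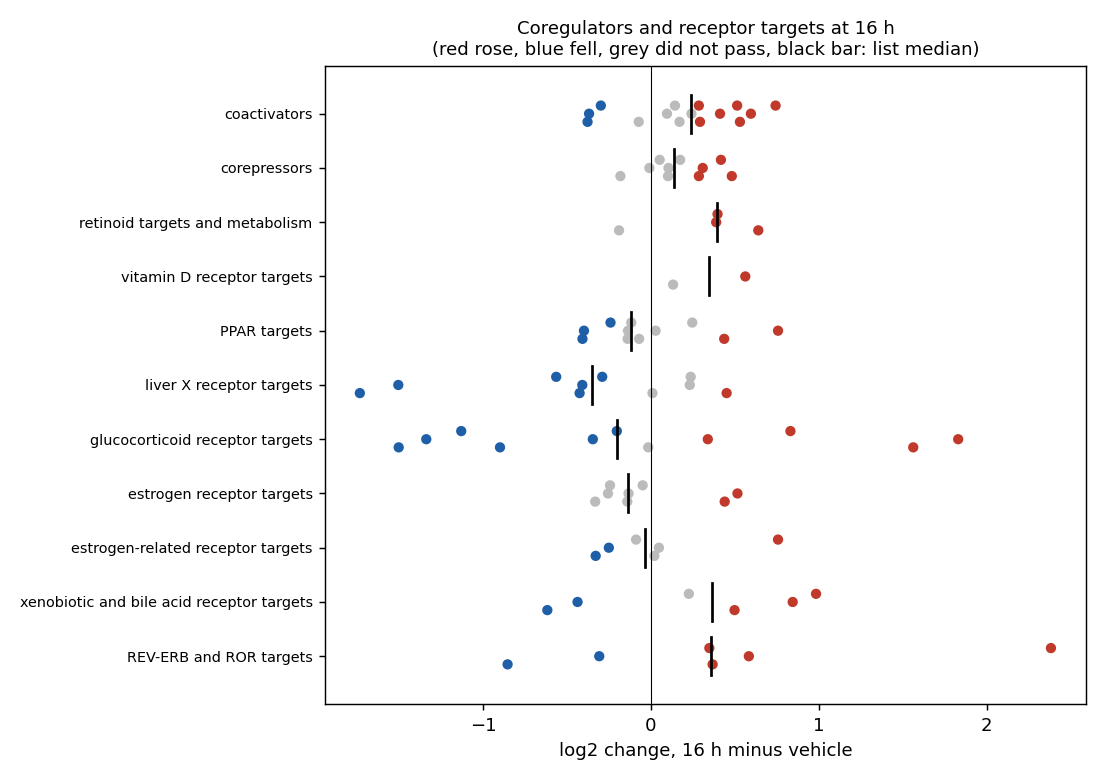
Log2 change at 16 h of the tested coregulators and receptor target genes by list (x axis, log2 units; 1 point per gene; red rose, blue fell, grey did not pass; black bar, list median). Coactivators, corepressors and retinoid genes lie mostly right of 0, liver X receptor targets mostly left of it, and glucocorticoid receptor targets spread widely on both sides, from -1.50 to 1.83.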

How the data were processed

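The authors deposited log2 signals, made with GCRMA per the submitters' processing notes, for 54675 probe sets on 12 Affymetrix U133 Plus 2.0 arrays; no version is given in the sources used here. GCRMA corrects background by probe sequence and equalises the arrays, so a shift of most genes together would be hidden. Per the labels' protocols, RNA was column-purified and amplified from its 3' end. The platform annotation gave 41097 probe sets with 1 symbol, 1801 with several and 11777 with none; 62 control probe sets were left out.

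The 4 groups were fitted in 1 linear model per gene by lmFit and eBayes of limma 3.58.1, under R 4.3.3, with 8 residual and 3.69 prior degrees of freedom, and two-sided p-values were adjusted by Benjamini-Hochberg over 12635 genes, or 22708 probe sets, at a threshold of 0.05. Every adjusted p printed comes from these fits. Folds against a group at background use the highest unspiked control and are lower bounds. The fit was tested on simulated data.

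The members, gene lists, tests and alternatives were chosen with earlier results of these data known. All members are described, with the 3 largest changes at 16 h of each coregulator or target list and any member called at 4 h or 6 h. Promoters came from RefSeq tables of GRCh38.p14, read on both strands for the motifs named. Alternatives changed scaling, filter, probe set choice, prior, weights, replicate block, and arrays left out. The number of arrays limits the precision.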

Additional observations from a re-analysis of the deposited data

Results flagged for a closer look

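The receptors below differed between treatment times in the limma fit, and each log2 change is followed by its adjusted p over all genes. These comparisons share arrays with each other and with the comparisons against vehicle.

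Between 6 h and 4 h, ESRRG had a change of -0.87 (adjusted p = 0.00581). Without 4 h replicate 2 it did not pass (adjusted p = 0.056).

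Between 16 h and 4 h the 7 receptors that were higher at 16 h were RORA, with 1.28 (3.76e-06), NR3C1, with 1.28 (0.000122), RORB, with 0.45 (0.00853), RXRB, with 0.42 (0.00113), RXRA, with 0.30 (0.0471), VDR, with 0.28 (0.0214), and PPARD, with 0.26 (0.0317). The 4 that were lower were ESRRG, with -0.65 (0.000292), RARB, with -0.64 (0.00125), NR1H3, with -0.57 (0.00374), and RARG, with -0.53 (0.00194). RXRA, VDR and PPARD did not pass against vehicle at 16 h, and the 4 h mean of each was below its vehicle mean. The RXRA call was lost in 26 of 33 alternatives, each single vehicle, 4 h and 16 h array left out among them (adjusted p up to 0.16). The PPARD call was lost in 13 of 34, among them without 4 h replicate 1 or 2 or 16 h replicate 2 or 3 (0.113, 0.0766, 0.0943 and 0.0732). The VDR call was lost in 7 of 34, among them without 4 h replicate 1 or 2 or 16 h replicate 3 (0.07, 0.0779 and 0.0737). RORA did not pass without 16 h replicate 2 or 3 (0.886 and 0.915), where its other probe set became the brightest.

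Between 16 h and 6 h the 7 that were higher at 16 h were NR3C1, with 1.32 (8.95e-05), RORA, with 1.18 (6.25e-06), NR1D2, with 0.79 (0.000631), RORB, with 0.44 (0.00903), RXRB, with 0.39 (0.00166), VDR, with 0.34 (0.00785), and NR2C2, with 0.25 (0.0495). The 3 that were lower were NR1H3, with -0.83 (0.000282), RARG, with -0.54 (0.0015), and NR2F1, with -0.24 (0.0226). The NR2C2 call was lost in 26 of 34 alternatives, with its lowest value, 0.14, without 6 h replicate 1 (adjusted p = 0.195, the highest). The NR2F1 call was lost in 8 of 34, namely without 6 h replicate 2 or 3 or 16 h replicate 1 or 3 (0.0764, 0.0515, 0.0523 and 0.0849), with and without the probe sets kept. RORA again did not pass without 16 h replicate 2 or 3 (0.538 and 0.778).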

How the results depend on the processing

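Of 35 called receptor values, 14 kept their call in each of the alternatives run. Over all 35, 1028 of 1162 alternative values kept direction and call, 1 changed sign, and the others kept direction and lost the call. The change of sign was RORA at 16 h against 4 h without 16 h replicate 3, at -0.034 (adjusted p = 0.915, with 6.04e-08 to 0.915 over its alternatives and values up to 1.36), where another probe set became the brightest. The 8 rises at 16 h became 4 under median centring, 2 with the mean of probe sets, 4 to 10 with 1 array left out, and 5 without 16 h replicate 3 with probe sets kept. The 4 falls at 16 h became 2 with the 75th percentile filter, which tests 15 members, and 3 to 4 with 1 array left out. The 1 rise at 4 h became 0 with that filter and with the mean of probe sets. The 1 change between 6 h and 4 h became 0 under both, with only the arrays compared, and without 4 h replicate 2, and leaving out arrays gave 0 to 1. The 11 changes between 16 h and 4 h became 6 with the filter, 5 with the mean of probe sets and 7 to 12 with 1 array left out, and the 10 between 16 h and 6 h became 7 to 12 with 1 array left out. Of 19 receptor probe sets changed at 16 h, the filter left 8, and leaving out 1 array gave 14 to 21. Some receptors without a call at 16 h passed in an alternative, namely VDR, RXRA, NR2C1, NR5A2, ESRRG and NR2F6.

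Counts at 16 h moved by over 1.5 times for 5 lists. With the mean of probe sets, coactivators numbered 5, against 10, xenobiotic targets 3, against 5, estrogen receptor targets 4, against 2, and estrogen-related receptor targets 5, against 3. The retinoid list had 1 under median centring, against 3. Estrogen receptor targets had 5 under quantile normalisation and under median centring, and 2 to 4 with 1 array left out (4 without 16 h replicate 2, also with probe sets kept). Xenobiotic targets had 2 with the 75th percentile filter and 3 to 5 with 1 array left out (3 without 16 h replicate 3, also with probe sets kept).

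Deviations of same-numbered arrays from their group means correlated over 0.1 in 5 of 18 pairs (-0.00455 to 0.235), and 9 of 12 arrays matched an array of their own number best. This is a hint from the data, not the design, and the numbers were not taken to pair the arrays. With the replicate number as a block, 9 receptors rose and 4 fell at 16 h, where RARA was lost (adjusted p = 0.0535) and RXRA and VDR passed (0.0476 and 0.0291); the p of RARA ran from 0.0147 to 0.144 over its alternatives. Signals near the unspiked controls, such as RORA, NR6A1, ESR1 and NR0B2 with vehicle, limit any fold for these receptors.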
